A study of Homo sapiens with 2 samples.

Results

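The blood clotting and complement genes of Huh7 cells, a human hepatoma line, were compared between a library from cells with a control shRNA (1 library) and a library from cells with an shRNA against E2F6, a repressor of the E2F family (1 library). The members were taken by gene name from a list of 38 coagulation, fibrinolysis and complement factors and their regulators. Of these, 37 were among the 21225 genes with a value in both libraries, and THBD was not analysed here. The cells were transfected with shRNA, and total RNA went into an mRNA-seq kit. Both groups carry an shRNA, and the labels give liver as the tissue and Huh7 as the line. The shRNA sequences, the number of clones and the time of harvest are not given in the sources used here. With 1 library in each group there was no replicate check, so the differences describe these libraries and carry no p-value.

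Most clotting factors are made by hepatocytes and secreted as inactive precursors, which cut and activate each other in a cascade that ends when thrombin turns fibrinogen into fibrin. Tissue factor, a membrane protein, starts that cascade, protease inhibitors and the protein C system restrain it, and plasmin dissolves the clot. Complement is a second plasma cascade made largely by the liver, in which C3 and then C5 are cleaved on microbial surfaces, while membrane proteins such as CD46, CD55 and CD59 protect the body's own cells. Several factors, among them prothrombin, factors VII and X, protein C, protein S and protein Z, need a vitamin K-dependent modification in the hepatocyte.

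Levels are given as FPKM, fragments scaled to the length of the gene and the depth of the library, always with the control shRNA library before the E2F6 shRNA library. A difference is taken on the log2(FPKM + 1) scale, E2F6 shRNA minus control, and it understates the change of genes at low levels. A gene was called higher or lower when the difference was at least 1 in size and the mean FPKM was at least 1. Ratios are of the FPKM values themselves, and the range after a ratio is its 95% interval from an exact binomial calculation on fragment numbers recovered from the deposited values. The interval covers counting error only.

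Of the 37 genes, 31 reached the minimum mean, and 29 of these had a difference below 0, which was the case for 50.3% of all 11574 genes at that mean and for 50.7% of the protein-coding ones. By the rule of size 4 genes were lower, HABP2, C5, KNG1 and TFPI, beside 2.06% of all genes, and 1 was higher, F3, beside 1.17% of all genes. The median difference of the 31 genes was -0.40, against -0.002 for all genes at that mean. In bulk RNA, fewer cells of a kind and less RNA per cell cannot be told apart. Without the minimum, 33 of 37 genes had a difference below 0, beside 52.1% of all 21225 genes. F7, at 1.42 and 0.707 FPKM, was the only one of the 31 genes to reach the minimum with the E2F6 shRNA library below 1 FPKM.

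The fragment numbers were recovered from the same FPKM values, so their direction follows from those values and is no separate support. The 37 genes held 104024 fragments in the control shRNA library, 0.607% of its total (95% exact binomial interval 0.603 to 0.611%), and 66793 in the E2F6 shRNA library, 0.454% (0.450 to 0.457%). The ratio's interval lay wholly below 1 for 25 of the 31 genes, as it did for 33.9% of all genes with recovered fragments, and wholly above 1 for F3 alone, as for 32.3% of all. For the other 5, SERPING1, SERPINF2, VTN, CD59 and CFB, the interval included 1. The FPKM ratio was at or under 1/1.5 for 12 of the 31 genes, beside 14.6% of all genes, and at or over 1.5 for F3 alone, beside 8.72% of all genes.

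**Figure D1:**
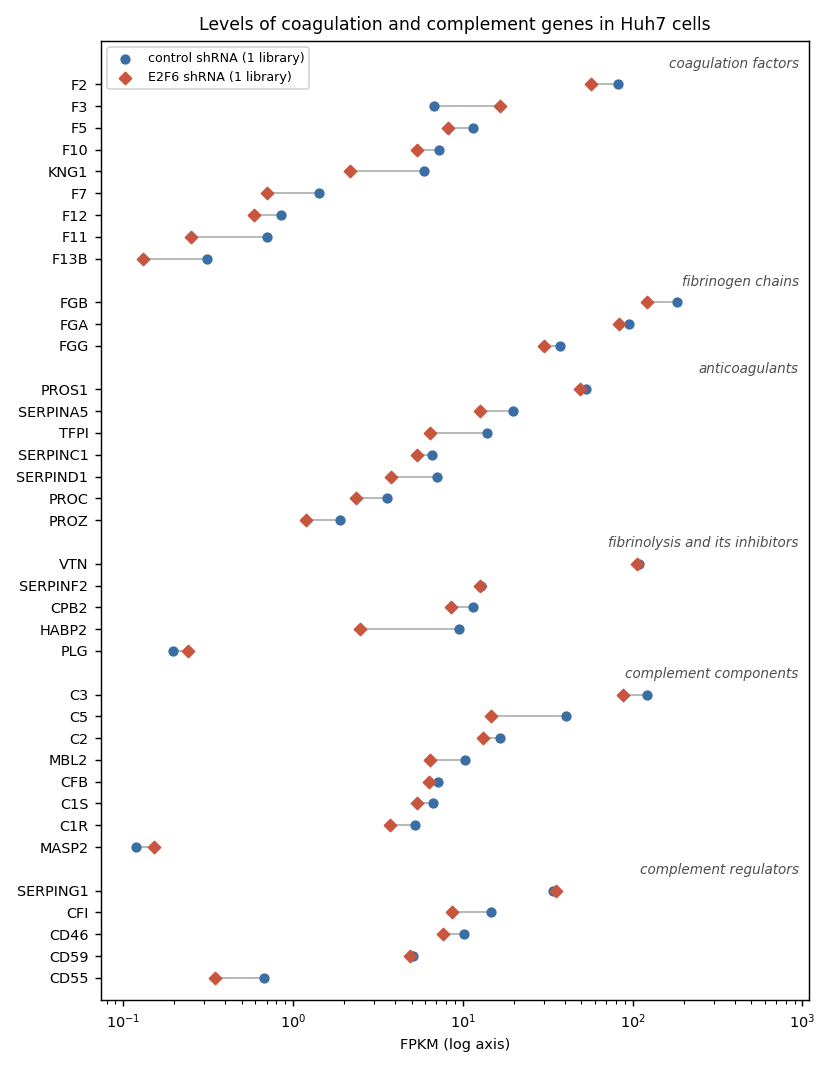
FPKM of the 37 genes on a log axis, grouped by role, with a circle for the control shRNA library and a diamond for the E2F6 shRNA library. The diamond lies left of the circle for 33 of the 37 genes, and F3 shows the widest gap in the other direction, from 6.78 to 16.6 FPKM.

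The libraries themselves were of like depth, with implied totals of 17139209 and 14724834 fragments. E2F6 (ENSG00000169016) was at 2.54 and 0.997 FPKM, from 397 and 134 fragments, which is 39.3% of the control (32.1 to 47.9%). All 7 hepatocyte markers were present, their summed level being 1518 and 1180 FPKM. The E2F6 shRNA library was lower for ALB (173 and 77.6 FPKM), AHSG (169 and 61.9 FPKM) and APOB (318 and 138 FPKM). By smaller margins it was also lower for TF (254 and 223 FPKM) and SERPINA1 (151 and 139 FPKM). APOA1 (379 and 448 FPKM) and TTR (74.6 and 91.3 FPKM) were higher, so the markers did not all move together. Of the endothelial markers 1 of 7 was listed, PECAM1 at 1.53 and 2.83 FPKM, and of the platelet markers 3 of 6, with a sum of 0.827 and 1.22 FPKM. Of the macrophage markers 4 of 7 were listed, near 0 apart from CD68 and LYZ. CD68 was at 1.78 and 1.74 FPKM, and LYZ at 240.1 and 133 FPKM. The fibroblast and stellate list had 5 of 6 members listed with a sum of 39.2 and 59.5 FPKM, and these went both ways. COL1A1 (20.1 and 36.7 FPKM) and COL1A2 (14.6 and 19.5 FPKM) were higher in the E2F6 shRNA library. LUM (3.51 and 2.54 FPKM) and PDGFRB (0.969 and 0.711 FPKM) were lower, and ACTA2 was near 0. The part of these markers in the results was not tested. The deposited values rest on gene lengths that were 1 to 5.13 times the longest annotated transcript of a member, so a level compared between genes depends on that length, while a ratio between the libraries does not.

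Tissue factor stood apart among the initiators and coagulation factors. F3 (ENSG00000117525, chromosome 1), which encodes tissue factor, was at 6.78 FPKM in the control and at 16.6 FPKM with the E2F6 shRNA. The E2F6 shRNA library was thus higher by a ratio of 2.45 (2.21 to 2.71), and the difference of 1.18 was above that of 99.3% of all genes at the minimum mean. F7 (ENSG00000057593), the plasma protease that binds tissue factor, was at 1.42 and 0.707 FPKM, a ratio of 0.496 (0.384 to 0.638). The membrane cofactor and the protease with which it starts clotting therefore differed in opposite directions between the libraries.

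The factors downstream, F2, F10 and F5, also had ratios below 1, though nearer to 1 than that of F7. F2 (prothrombin, ENSG00000180210) was at 82.4 and 56.9 FPKM, a ratio of 0.690 (0.660 to 0.722) from 5171 and 3066 fragments. F10, the protease that cuts prothrombin, was at 7.296 and 5.39 FPKM (ratio 0.738, 0.650 to 0.837), and its cofactor F5 at 11.5 and 8.19 FPKM (0.712, 0.655 to 0.774). None of these reached a difference of 1 in size, and their intervals all lay below 1. KNG1 (kininogen, ENSG00000113889, chromosome 3), the cofactor of the contact system and precursor of bradykinin, was lower by the rule, at 5.88 and 2.17 FPKM with 475 and 151 fragments. Its difference was -1.12 and its ratio 0.370 (0.306 to 0.445), and after a correction for GC content described further on the difference was -0.93, short of the rule. A gene on the opposite strand that covers 15.4% of its exon bases, RP11-573D15.8, was at 0.0180 and 0.00698 FPKM.

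The remaining factors were at low levels. F11 was at 0.707 and 0.251 FPKM, from 59 and 18 fragments, a ratio of 0.355 (0.197 to 0.611). F12, which starts the contact pathway, was at 0.851 and 0.588 FPKM (0.690, 0.478 to 0.987). These stayed under the minimum mean, as did F13B, the carrier subunit of the fibrin cross-linking factor, at 0.314 and 0.131 FPKM. The 14 and 5 fragments of F13B gave a ratio of 0.416 with an interval of 0.117 to 1.22, so no difference was detectable at this depth. In the annotation used here, 14.4% of the exon bases of F12 lie opposite exons of GRK6, and since it is not known whether reads were counted by strand, the value of F12 is uncertain.

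All 3 fibrinogen chains were abundant and had ratios below 1, none past the rule, although FGG was at 0.02 after the GC correction. FGB, the beta chain, was the most abundant of the 37 genes at 183 and 121 FPKM, a ratio of 0.663 (0.645 to 0.680) from 15292 and 8704 fragments. FGA, the alpha chain, was at 95.5 and 83.3 FPKM (87.3% of the control, 84.7 to 89.96%), and FGG, the gamma chain, at 37.5 and 30.01 FPKM (0.801, 0.767 to 0.836). The chains, whose products assemble into 1 protein, thus had different ratios, and the counting intervals did not overlap. The genes are neighbours on chromosome 4, with 10.3 kb between FGB and FGA and 13.4 kb between FGA and FGG in RefSeq on GRCh38. The promoters of FGA and FGB are shown because both, in the 300 bases of the RefSeq table (GRCh38.p14, 250 bases before the start to 50 after it), hold a match to the C/EBP motif TTGCNNAA on either strand, printed in capitals. That of FGA lies at chr4:154590693-154590992 on the minus strand and that of FGB at chr4:154562730-154563029 on the plus strand.
FGA: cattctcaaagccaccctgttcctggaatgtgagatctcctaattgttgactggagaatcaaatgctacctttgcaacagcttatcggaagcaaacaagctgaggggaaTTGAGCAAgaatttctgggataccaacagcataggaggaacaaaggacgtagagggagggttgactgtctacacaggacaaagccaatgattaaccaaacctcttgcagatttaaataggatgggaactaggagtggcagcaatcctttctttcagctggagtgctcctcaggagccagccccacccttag
FGB: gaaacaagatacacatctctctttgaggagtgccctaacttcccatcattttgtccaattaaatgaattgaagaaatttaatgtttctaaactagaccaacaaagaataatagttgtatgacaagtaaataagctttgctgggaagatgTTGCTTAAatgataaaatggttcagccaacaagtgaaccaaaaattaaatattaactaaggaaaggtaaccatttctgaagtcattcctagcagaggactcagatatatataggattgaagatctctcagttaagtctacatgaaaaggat

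The C/EBP motif was found in 7 of 32 member promoters in that table (21.9%), those of FGA, FGB, KNG1, MBL2, C1R, CPB2 and VTN, and in 10.6% of all 27305 promoters of the same length. The ratios of these 7 genes ran from 0.370 for KNG1 to 0.965 for VTN. A match describes letters only. The HNF4 motif, searched as CAAAGTCCA or AGGTCAAAG on both strands, was found in 2 member promoters, F10 and PROZ, and in 0.593% of all. The HNF1 consensus palindrome, searched without mismatches, was found in 0 of the 32 and in 1 of all promoters. E2F motifs, searched as TTTCCCGC, TTTGGCGC, TTTGCCGC or TTTCGCGC on both strands, were found in 2 of 32 member promoters (6.25%), C5 and CD46, and in 3.33% of all. The C5 match is at a RefSeq start that lies 24.6 kb upstream of the start of its basic transcript in GENCODE release 29. No match of one motif overlapped a match of another in the member promoters.

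F7, F10 and PROZ form a cluster on chromosome 13, with 2.11 kb between F7 and F10 and 9.12 kb between F10 and PROZ. All 3 had a difference below 0 and none was past the rule. A difference below 0 was also found for 29 of the 31 genes and for 50.3% of all genes at the minimum mean. PROZ (protein Z), the cofactor of an inhibitor of activated factor X, was at 1.89 and 1.19 FPKM from 87 and 47 fragments, a ratio of 0.629 (0.431 to 0.907). The promoters of F10 (chr13:113122549-113122848, plus strand) and PROZ (chr13:113158398-113158697, plus strand), RefSeq on GRCh38.p14, are shown because the same HNF4 match, in capitals, stands in both.
F10: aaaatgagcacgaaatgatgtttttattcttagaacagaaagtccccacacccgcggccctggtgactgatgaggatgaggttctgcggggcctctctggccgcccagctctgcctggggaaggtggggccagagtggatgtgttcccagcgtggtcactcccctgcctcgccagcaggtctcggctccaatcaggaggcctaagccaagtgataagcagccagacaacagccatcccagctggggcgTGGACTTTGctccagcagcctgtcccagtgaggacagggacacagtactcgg
PROZ: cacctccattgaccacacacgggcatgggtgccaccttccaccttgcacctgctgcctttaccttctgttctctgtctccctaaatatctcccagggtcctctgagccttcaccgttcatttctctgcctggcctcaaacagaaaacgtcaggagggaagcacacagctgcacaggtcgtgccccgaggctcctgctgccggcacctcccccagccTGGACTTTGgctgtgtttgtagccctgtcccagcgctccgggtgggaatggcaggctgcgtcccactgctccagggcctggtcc

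All 7 measured genes listed as anticoagulants had a difference below 0, beside 50.3% of all genes at the minimum mean. PROS1 was at 0.14 after the GC correction, and TFPI was lower by the rule of size. TFPI (ENSG00000003436, chromosome 2) encodes tissue factor pathway inhibitor, which blocks the complex of tissue factor and factor VII. It was at 13.9 and 6.44 FPKM, from 4021 and 1599 fragments, a ratio of 0.463 (0.437 to 0.491), and its difference of -1.003 only just reached the threshold. It fell short after quantile normalization (-0.98), with a TMM scaling factor (-0.99) and after the GC correction (-0.80). Tissue factor and its inhibitor were thus on opposite sides, F3 higher and TFPI lower. SERPIND1 (heparin cofactor II), an inhibitor of thrombin, was at 7.02 and 3.79 FPKM (ratio 0.540, 0.440 to 0.661). SERPINA5, the protein C inhibitor, was at 19.7 and 12.7 FPKM (0.645, 0.592 to 0.702), and SERPINC1, which encodes antithrombin, at 6.61 and 5.38 FPKM (0.814, 0.682 to 0.971).

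Of the protein C system, PROC and PROS1 were lower by unequal margins before the GC correction. PROC (protein C), a protease that inactivates the cofactors of clotting, was at 3.58 and 2.35 FPKM, a ratio of 0.655 (0.552 to 0.776). PROS1 (protein S), the cofactor of protein C, was at 53.01 and 48.8 FPKM, a ratio of 0.921 (0.886 to 0.958). PROCR, the protein C receptor, from the second list described further on, was at 0.948 and 1.36 FPKM. Its ratio was 1.43 with an interval of 0.894 to 2.30, which included 1. The 6 vitamin K-dependent members (F2, F7, F10, PROC, PROS1 and PROZ) all had a ratio below 1 before the GC correction, beside 50.3% of all genes. Their ratios ran from 0.496 for F7 to 0.921 for PROS1, and none was past the rule.

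In fibrinolysis, HABP2 had the lowest difference of the 31 genes. HABP2 (ENSG00000148702, chromosome 10) encodes a hyaluronan-binding plasma protease that activates factor VII and the urokinase precursor. It was at 9.48 and 2.47 FPKM, from 827 and 185 fragments. It was 3.84-fold lower (3.27 to 4.53), with a difference of -1.60, and its place among all genes at the minimum mean was the 0.380 percentile. NRAP, whose exons lie opposite 10.04% of its exon bases, was at 0.0162 and 0 FPKM. Its promoter (chr10:113550581-113550880, plus strand) is printed beside that of F3 (chr1:94541710-94542009, minus strand), RefSeq on GRCh38.p14, because these genes had the lowest and the highest difference. Neither held a match to the searched motifs, so no letters are in capitals, and the share of G and C was 46.0% for HABP2 and 77.3% for F3.
HABP2: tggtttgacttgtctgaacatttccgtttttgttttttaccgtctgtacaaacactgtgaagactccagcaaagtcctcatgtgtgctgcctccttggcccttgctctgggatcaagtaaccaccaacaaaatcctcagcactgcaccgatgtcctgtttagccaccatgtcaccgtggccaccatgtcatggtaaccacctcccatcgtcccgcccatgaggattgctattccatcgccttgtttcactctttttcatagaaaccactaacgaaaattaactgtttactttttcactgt
F3: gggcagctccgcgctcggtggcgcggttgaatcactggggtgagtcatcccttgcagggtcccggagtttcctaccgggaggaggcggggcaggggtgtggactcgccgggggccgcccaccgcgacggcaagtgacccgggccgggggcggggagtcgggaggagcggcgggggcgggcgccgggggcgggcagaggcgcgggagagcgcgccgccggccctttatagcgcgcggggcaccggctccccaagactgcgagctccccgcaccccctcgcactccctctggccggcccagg

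Of the other fibrinolysis genes, VTN and SERPINF2 were close between the libraries before the GC correction, and PLG was at a low level. CPB2 was lower in the E2F6 shRNA library before that correction, without passing the rule. VTN (vitronectin), an adhesive protein of plasma and matrix, was at 109 and 105 FPKM, a ratio of 0.965 (0.929 to 1.002). SERPINF2, the main inhibitor of plasmin, was at 12.9 and 12.6 FPKM (0.977, 0.888 to 1.07). By counting error alone, VTN was at no less than 92.9% and SERPINF2 at no less than 88.8% of the control. CPB2, a carboxypeptidase that slows clot lysis, was at 11.4 and 8.52 FPKM (0.746, 0.644 to 0.862). After the GC correction the order changed, with differences of -0.13 for CPB2, -0.18 for SERPINF2 and -0.21 for VTN. PLG, the plasmin precursor, was at 0.197 and 0.243 FPKM from 35 and 37 fragments, and its ratio of 1.23 (0.754 to 2.01) left no difference detectable at this depth.

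**Figure D2:**
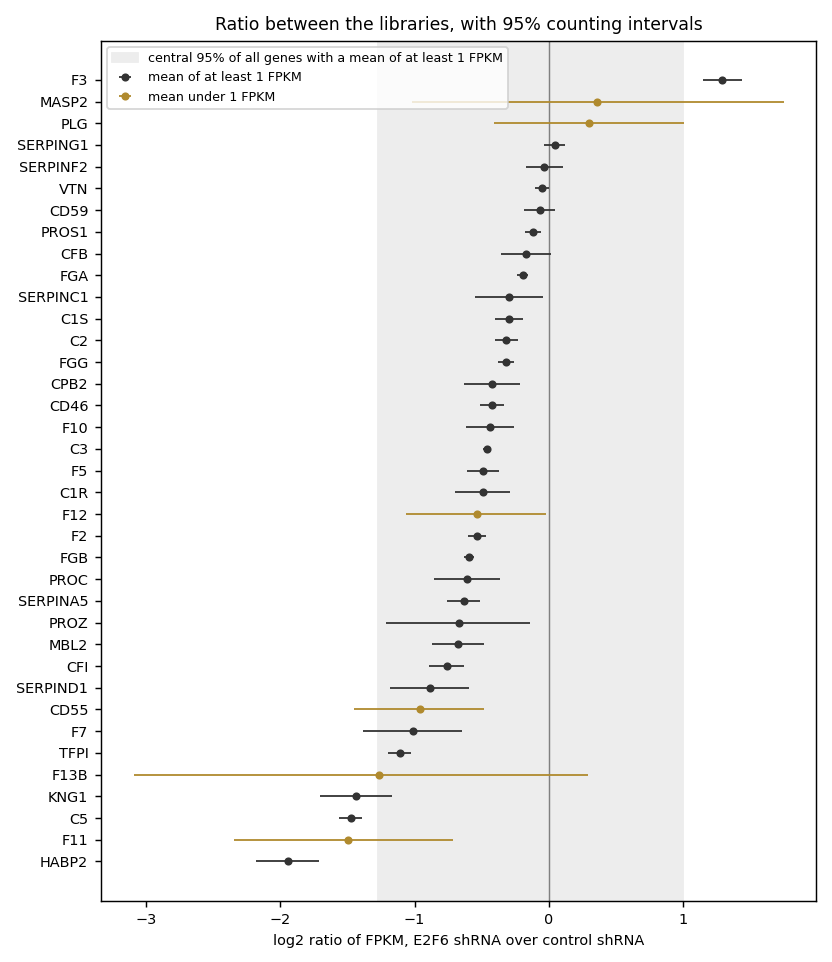
Log2 of the FPKM ratio, E2F6 shRNA over control shRNA, for the 37 genes in order, with bars for the 95% counting interval, and the central 95% of all genes at the minimum mean in grey. HABP2, C5 and KNG1 lie left of the grey band and F3 right of it, while F11, also left of it, has a mean under 1 FPKM.

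Among the complement components at the minimum mean, C5 was past the rule and the others had ratios below 1 by smaller margins. C5 (ENSG00000106804, chromosome 9), the source of the anaphylatoxin C5a and the start of the membrane attack complex, was at 40.6 and 14.6 FPKM. It was 2.78-fold lower (2.62 to 2.95) in the E2F6 shRNA library, from 4704 and 1454 fragments, with a difference of -1.41. C3, the central component of all complement pathways, was at 122 and 88.2 FPKM, a ratio of 0.725 (0.711 to 0.740). The intervals of C3 and C5 did not overlap, although both were lower. The lectin MBL2, which recognises microbial sugars, was at 10.3 and 6.45 FPKM (0.625, 0.546 to 0.715). MASP2, the protease that MBL2 carries, was at 0.119 and 0.152 FPKM from 10 and 11 fragments, a ratio of 1.28 with an interval of 0.494 to 3.36.

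The classical and alternative pathway proteases had ratios from 0.711 for C1R to 0.889 for CFB, beside 0.725 for C3. C1R and C1S, the proteases of the first complement component and neighbours on chromosome 12, were at 5.26 and 3.74 FPKM (ratio 0.711, 0.617 to 0.819) and at 6.64 and 5.41 FPKM (0.814, 0.757 to 0.876). C2, the protease of the classical C3 convertase, was at 16.5 and 13.2 FPKM (0.803, 0.757 to 0.851), and CFB, its counterpart in the alternative pathway, at 7.13 and 6.33 FPKM (0.889, 0.782 to 1.009). These 2 genes lie 0.423 kb apart on chromosome 6 and share exon bases with another gene annotated on the same strand, XXbac-BPG116M5.17, which was at 4.33 and 6.02 FPKM. It covers 32.9% of the exon bases of C2 and 45.0% of those of CFB, so the values of both are uncertain. C1R shares 11.4% of its exon bases with C1RL, which was at 6.92 and 7.31 FPKM.

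Before the GC correction the complement regulators divided into some that were lower and some that were level, with none past the rule. CFI (factor I), which cleaves C3b and C4b, was at 14.7 and 8.65 FPKM, a ratio of 0.590 (0.538 to 0.647). SERPING1, the C1 inhibitor, was at 34.2 and 35.2 FPKM, and its ratio of 1.03 (0.976 to 1.09) was the only one above 1 besides F3 among the 31 genes. SERPING1 was below 0 after quantile normalization and after the GC correction. CD46, a membrane cofactor of factor I, was at 10.2 and 7.602 FPKM (74.5% of the control, 69.99 to 79.3%). CD59, which blocks the membrane attack complex, was at 5.104 and 4.86 FPKM (0.953, 0.878 to 1.03). After the GC correction the differences were -0.01 for CD46, -0.03 for CD59, -0.12 for SERPING1 and -0.46 for CFI. CD55, which speeds the decay of the convertases, was under the minimum at 0.676 and 0.348 FPKM, and its 120 and 53 fragments gave a ratio of 0.514 (0.365 to 0.716). Of the 4 membrane-bound members with values, 3 reached the minimum mean, and 1 of these, F3, was higher, beside 1.17% of all genes. CD46, CD55 and CD59 had ratios between 0.514 and 0.953.

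Across genes, transcripts richer in GC had higher differences between these libraries (Spearman 0.467 over 9900 protein-coding genes, which are not independent replicates). The median difference was -0.41 among the 10% of genes poorest in GC and 0.16 among the 10% richest in it. The part of GC content in the members' values was not tested beyond the corrected values given here. The 31 members had a median GC content of 49.2%, against 48.2% for the protein-coding genes, and among them the correlation was 0.239 over genes of the same libraries. With the trend removed, 28 of the 31 members still had a difference below 0, beside 49.3% of the protein-coding genes, and their median was -0.41. HABP2 (-1.71), C5 (-1.14) and F3 (1.28) stayed past the rule, while KNG1 (-0.93) and TFPI (-0.80) did not. FGG (0.02) and PROS1 (0.14) moved above 0 and SERPING1 (-0.12) below it, and FGA was at -0.07 and FGB at -0.38.

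**Figure D3:**
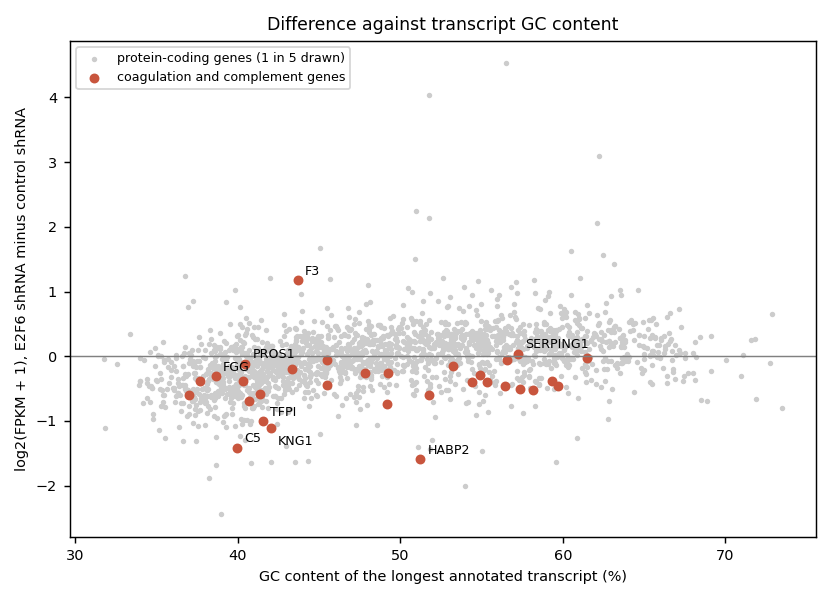
The difference of each gene against the GC content of its longest annotated transcript, in percent, with 1 in 5 protein-coding genes in grey and the 31 coagulation and complement genes in red. Low-GC genes lie lower in the cloud as a whole, and members at a GC content above 50%, HABP2 among them at 51.2%, mostly lie below 0.

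The rest of the pathway was read from a second list of 68 genes, of which 44 had values and 25 reached the minimum mean. By the rule of size 1 of these 25 was lower and 0 were higher, beside 2.06% and 1.17% of all genes, and 15 had a difference below 0, beside 50.3% of all genes. Their median difference was -0.09. Among its fibrinolysis genes, PLAU, ANXA2, S100A10 and THBS1 were higher in the E2F6 shRNA library, without passing the rule. PLAU, the urokinase that activates plasminogen, was at 7.83 and 11.8 FPKM (1.505, 1.35 to 1.67), and ANXA2, which forms a plasminogen receptor with S100A10, was at 34.9 and 53.8 FPKM (154% of the control, 150.004 to 159%). S100A10 was at 155 and 231 FPKM (1.49, 1.44 to 1.55). THBS1 (thrombospondin 1) was at 8.63 and 14.8 FPKM (1.71, 1.61 to 1.82).

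All 6 genes of the vitamin K cycle and factor secretion had a difference below 0, beside 50.3% of all genes, and none was past the rule. LMAN1, a cargo receptor that carries clotting factors out of the endoplasmic reticulum, was at 53.03 and 34.5 FPKM, a ratio of 0.650 (0.626 to 0.676), and FURIN, a protease that trims precursors, was at 171 and 146 FPKM. GGCX, the vitamin K-dependent carboxylase, was at 21.8 and 16.02 FPKM (73.4% of the control, 70.004 to 76.9%). The rest were nearer to the control, VKORC1L1 at a ratio of 0.845 (0.784 to 0.911) and MCFD2 at 0.938 (0.894 to 0.985). For VKORC1 the ratio was 0.940 (0.845 to 1.046), an interval that included 1. The difference of MCFD2 was -2.9e-05 after the GC correction.

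Other complement genes of the second list lay on both sides of the control. CLU (clusterin) was at 42.9 and 51.01 FPKM (1.19, 1.14 to 1.24) and C1QBP, a mitochondrial protein that can bind C1q, at 46.6 and 66.1 FPKM (1.42, 1.35 to 1.49). MASP1, a protease of the lectin pathway, was at 16.2 and 11.7 FPKM (0.724, 0.681 to 0.769), and C8A, a subunit of the membrane attack complex, at 5.97 and 7.005 FPKM (1.17, 0.978 to 1.41). Of the other coagulation and anticoagulant genes on that list, A2M, a broad protease inhibitor, was at 252 and 249 FPKM (0.987, 0.973 to 1.002), and SERPINA1, the main inhibitor of neutrophil elastase, at 151 and 139 FPKM (0.921, 0.906 to 0.937).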

How the data were processed

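Total RNA of Huh7 cells was sequenced as 1 library per group, and each table held 21227 rows, of which 2 without a usable gene or value were dropped. The deposited values are FPKM, made by the authors. The file headers give only the library name, and the unit was taken from the values, which for genes with 1 transcript came in whole multiples of 1 step per kilobase (within 0.01 of a whole fragment for 97.9% of 5452 and 97.9% of 5162 values). Per the submitters' processing notes, GRCh37, HISAT2 2.0.4 and StringTie 1.3.0 were used, while their roles, the annotation release, the read length and strand use are not given in the sources used here.

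Fragments were recovered by searching the whole-number gene length, between 0.4 and 3 times the annotated exon bases, at which both libraries gave whole fragments within 0.0007, plus 5e-08 of the fragment number. A solution was found for 98.1% of 18985 genes, against 2.5% of 1000 genes when wrong totals were used. All 37 members had 1, and for the 14 with several the smallest length of at least 0.9 times the longest transcript was used. The values do not tell reads from fragments, and PCR copies cannot be told from separate molecules. Lengths, GC content and exon overlaps came from GENCODE release 29 (GRCh38), matched by gene ID. Promoters came from RefSeq, matched by symbol for 32 members.

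The members, lists, motifs and alternatives were chosen with earlier results of these data known. All members are named, with values in each library. Of the second list, genes past the rule of size and the 2 of each role with the highest mean are named, apart from results not reported here. PLAU, ANXA2, THBS1, GGCX, PROCR, VKORC1, VKORC1L1 and MCFD2 were chosen after their values were seen. GC content was corrected with a lowess curve (span 0.3) over 9900 protein-coding genes. The fragment recovery, the counting interval and the rule of size were tested on simulated data with counting noise only and known library totals. The estimate of those totals, the GC correction, the scalings and the motif search were not tested in this way. The tools were Python 3.11.15 with scipy 1.17.1, pandas 2.3.3, statsmodels 0.14.6, numpy 2.4.6 and matplotlib 3.10.9.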

Additional observations from a re-analysis of the deposited data

How the results depend on the processing

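With 1 library per group only counting error could be set, and it limits F13B, PLG and MASP2 most. The count of 4 lower and 1 higher members became 9 and 1 with a 1.5-fold threshold on the log2(FPKM + 1) scale, beside 9.33% and 5.05% of all genes. After the GC correction it was 2 and 1, beside 1.39% and 1.05% of the protein-coding genes, and KNG1 and TFPI fell short. It was 3 and 1 with a minimum mean of 5 FPKM (KNG1 not tested), with quantile normalization and with the TMM factor (30% of differences and 5% of levels trimmed at each end), where TFPI fell short in the latter 2. The shares of all genes lower and higher in these settings were 2.22% and 1.16%, 1.83% and 1.32%, and 1.98% and 1.22%. A pseudocount of 0.1, no minimum and centring on the median kept 4 and 1. The shares of all genes were there 4.51% and 2.32%, 1.31% and 0.735%, and 2.04% and 1.18%. The members' median ran from -0.46 with a pseudocount of 0.1 to -0.37 with quantile normalization. Quantile normalization moved SERPING1 below 0, and no called member changed sign under these alternatives. In the second list the count of 1 lower and 0 higher became 4 and 2 with the 1.5-fold threshold and 2 and 0 with no minimum, and was kept under the other alternatives. The shares of all genes given above for each setting apply here too. The GC correction moved 19 of 31 members beyond their counting interval, and the cause was not tested. No paired analysis was possible because the control and the E2F6 shRNA had 1 library each.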
